A study of Homo sapiens with 39 samples.

Results

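Transcript levels of 10 genes of Wnt signalling were followed across 39 RNA sequencing libraries of A375 and WM115, both established human melanoma cell lines. The genes were taken by symbol from the deposited gene table, which holds 60671 distinct genes. They are the ligand genes WNT5A and WNT5B, the receptor genes ROR1 and ROR2, the secreted Dickkopf genes DKK1 and DKK3, the transcription factor genes LEF1, TCF7 and TCF4, and the target gene AXIN2. The symbol TCF4 needs care, because the gene that carries it (ENSG00000196628) encodes a basic helix-loop-helix E protein. The Wnt effector often written TCF-4 is the product of TCF7L2, so TCF7L2 was read beside the 10 genes and TCF4 is described by its own gene.

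Per the labels, the clones carry a deletion of an enhancer region of SOX10, either region R1 or region R4, and each clone group is 1 clone. A375 was sampled as wild type (WT, 4 libraries), R1 clone 1.1 (3), R1 clone 1.2 (4), R4 clone 4.1 (4) and R4 clone 4.2 (3). WM115 was sampled as WT (4), R1 clone 1.1 (5), R1 clone 1.2 (3), R4 clone 4.1 (3), R4 clone 4.2 (3) and clone 1.3 (3), whose title number follows the R1 clones while its genotype label reads R4. Clone 1.3 was therefore kept apart from both regions. No drug or stimulus is named in the labels. They do not say whether the libraries of a clone came from separate cultures, so p-values measure only the spread between these libraries, which may be technical.

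Wnt proteins are secreted lipid-modified ligands that act on Frizzled receptors and co-receptors. In the canonical branch, a Wnt signal with LRP5 or LRP6 stabilises beta-catenin, which enters the nucleus and binds LEF1 and the TCF proteins, and AXIN2 is a widely used target of that complex and a negative regulator of it. WNT5A and WNT5B mostly signal without beta-catenin, through receptors that include ROR1 and ROR2, and in melanoma WNT5A is known for its association with invasive cells that have little pigment-cell gene expression. DKK1 blocks LRP5 and LRP6, whereas DKK3 is a divergent member of the Dickkopf family whose role in Wnt signalling is less settled.

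Values are TPM, transcript abundances scaled to the same total in each library and corrected for gene length, so the levels of different genes can be compared. Read depth is unknown, because no counts accompany them, and a gene at 0 is described as listed at 0. Between 14084 and 16140 genes per library had a TPM of at least 1. The share of TPM from genes of the mitochondrial genome ranged from 0.968% to 4.92% over the A375 libraries and from 4.71% to 19.4% over the WM115 libraries. Library 3 of WM115 R1 clone 1.2 stood apart from the other libraries of its clone: SOX10, a transcription factor of the melanocyte lineage, was at 9.56 TPM there, and 8 melanocytic marker genes summed to 29.4 TPM against 643 and 936 TPM in libraries 1 and 2. Differences that involve that clone are given with and without it. Among these 8 markers, SOX10 averaged 682 TPM in A375 WT and 507 TPM in WM115 WT, whereas TYR, the gene of tyrosinase, had a mean below 0.1 TPM in every A375 group and in both WM115 R4 clones.

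In WT cells the 2 lines placed these genes in a different order. A375 WT cells had most TCF7L2 (81.7 TPM) and LEF1 (62.7 ± 11.7 TPM, SD, n = 4), followed by WNT5A (39.1 ± 7.88 TPM), DKK1 (26.7 ± 34.2 TPM), DKK3 (12.9 ± 7.21 TPM), TCF4 (7.92 ± 1.91 TPM), TCF7 (4.17 ± 0.941 TPM) and ROR1 (2.65 ± 0.294 TPM). WNT5B, AXIN2 and ROR2 had means below 1 TPM. WM115 WT cells had most DKK3 (65.0 ± 15.6 TPM, SD, n = 4), followed by DKK1 (32.8 ± 26.1 TPM), LEF1 (22.3 ± 3.66 TPM), TCF7L2 (21.4 ± 7.57 TPM), WNT5A (15.2 ± 6.98 TPM), TCF7 (11.9 ± 2.74 TPM), ROR1 (4.83 ± 1.61 TPM) and AXIN2 (1.91 ± 0.509 TPM). WNT5B averaged 0.943 TPM, TCF4 0.108 TPM and ROR2 0.0035 TPM. The SD of DKK1 exceeded its mean in A375 WT, so its place in that order is uncertain.

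Tested over all 39 libraries with limma, 9 of the 10 genes passed the filter of at least 1 TPM in at least 3 libraries, and 6 of the 9 were called between WM115 WT and A375 WT (adjusted p under 0.05 and a log2 difference of at least 1 in size). Over all 18662 genes tested, 20.0% were called, 11.5% higher and 8.54% lower in WM115. DKK3 was higher in WM115 by 2.36 on the log2(TPM + 1) scale (SE 0.33, limma adjusted p 5.06e-07), TCF7 by 1.31 (adjusted p 0.000761) and AXIN2 by 1.03 (adjusted p 0.000167). TCF4 was lower by a log2 difference of -2.98, LEF1 by -1.45 and WNT5A by -1.45 (limma adjusted p 5.69e-17, 0.00354 and 0.00355). TCF4, at no more than 0.715 TPM in WM115, passed the filter only through A375 libraries. AXIN2 would not have passed on A375 libraries alone. The filter thus favoured the direction of these calls, and their p-values are not separate support for it. TCF7L2 was also lower in WM115 (log2 difference -1.95, limma adjusted p 1.22e-09), so of the LEF1, TCF7 and TCF7L2 effectors only TCF7 was called higher in WM115. The log2 difference of AXIN2 was 0.97 without A375 WT library 2, 0.99 without A375 WT library 3 and 0.92 without WM115 WT library 2, each below the minimum for a call. Median-of-ratios scaling also ended the AXIN2 call. The sum of 7 fibroblast marker genes also separated the lines, at 6.85 to 14.3 TPM in A375 WT and 461 to 673 TPM in WM115 WT. The number of these genes with a mean of at least 1 TPM went the other way, with 5 in A375 WT and 3 in WM115 WT. The higher WM115 sum thus rests on few of the 7 genes, and their part in these differences was not tested.

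Within each line, every clone was then compared with the WT libraries of that line, which all its clones share. In WM115, WNT5A rose in R1 clone 1.2 and in both R4 clones, WNT5B rose in both R1 clones and in R4 clone 4.2, DKK1 rose in R1 clone 1.1 and DKK3 in R4 clone 4.1. In A375, LEF1 fell in R1 clone 1.2, and no other gene of the 10 was called in any A375 clone in this unpaired fit. With the replicate number as a block, which the libraries of A375 clone 4.1 and WT share, DKK1 was called lower in clone 4.1 as well (log2 difference -3.04, limma adjusted p 0.00500). The share of all genes called with that block is not given. Of the 10 genes, 7 could be tested in A375 and 8 in WM115. In the unpaired fit of A375, 0 of the 7 were called in clone 1.1, 1 (lower) in clone 1.2, 0 in clone 4.1 and 0 in clone 4.2. In the same order, 0.731%, 4.01%, 0.653% and 0.473% of all 16692 genes tested were called. In WM115, 2 of the 8, all higher, were called in each of clones 1.1, 1.2, 4.1 and 4.2, where 4.88%, 7.61%, 7.57% and 6.60% of all 16997 genes tested were called. Called higher were 1.22%, 4.49%, 3.20% and 2.52% of all genes in the same order. None of the 8 was called in clone 1.3, against 0.618% of all genes. Where 0 were called in the unpaired fit, limma gave an unadjusted p under 0.05 for 1 gene in A375 clone 1.1, 4 in A375 clone 4.1, 0 in A375 clone 4.2 and 3 in WM115 clone 1.3. Over all genes, 1679, 1758 and 1297 of 16692 reached that p in these A375 clones, and 2212 of 16997 in WM115 clone 1.3. Without library 3 of WM115 clone 1.2, 2 of the 8 were again called higher there, beside 3.12% of all genes. The median log2 difference of the tested members was 0.34, -0.08, 0.00 and -0.01 in A375 clones 1.1, 1.2, 4.1 and 4.2, beside medians over all genes of 0.01, 0.07, -0.02 and 0.06. In WM115 clones 1.1, 1.2, 4.1, 4.2 and 1.3 it was -0.02, 0.48, 0.53, 0.52 and 0.10, beside -0.12, -0.02, -0.10, -0.10 and -0.03 over all genes, and 0.39 in clone 1.2 without library 3.

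**Figure D1:**
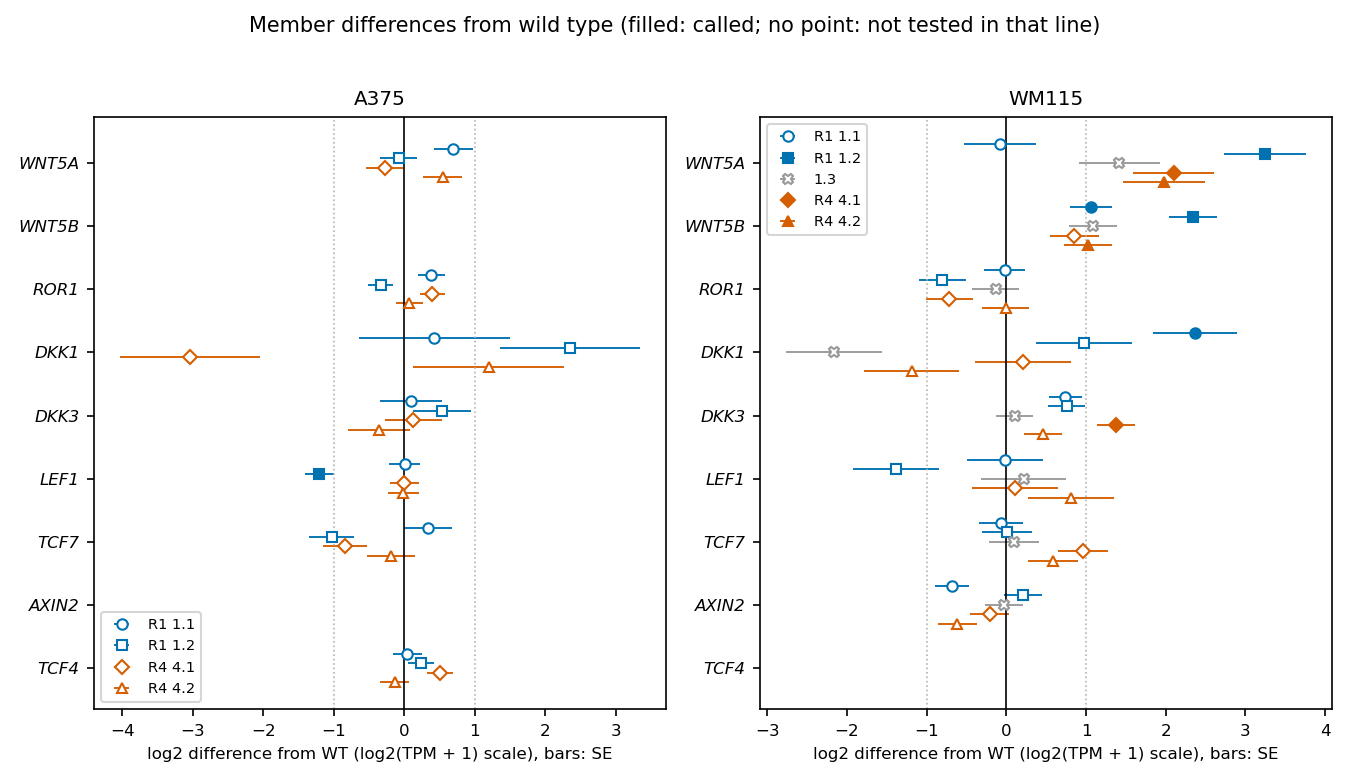
Log2 difference of each gene from the WT libraries of its line on the log2(TPM + 1) scale (horizontal axis, bars are SE), for A375 (left) and WM115 (right), with 1 symbol per clone and filled symbols for called differences. In WM115 all filled symbols lie to the right of 0, with WNT5A in clone 1.2 farthest at 3.25; in A375 the only filled symbol is LEF1 in clone 1.2 at -1.20, and DKK1 has the widest bars.

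WNT5A (ENSG00000114251; GRCh38 chromosome 3, 55465715 to 55490539, minus strand), the ligand most often studied in melanoma, was the member with the largest rise. WM115 WT libraries had 18.7, 18.1, 19.2 and 4.74 TPM. R1 clone 1.2 had 119 TPM, 107.7 TPM and 196 TPM, R4 clone 4.1 had 71.8, 49.0 and 64.0 TPM, and R4 clone 4.2 had 49.99, 46.4 and 75.2 TPM. Every library of these 3 clones lay above the highest WT library. The rise was 9.49-fold in clone 1.2 (log2 difference 3.25, SE 0.51, limma adjusted p 0.000489), 4.28-fold in clone 4.1 (2.10, SE 0.51, adjusted p 0.00690) and 3.94-fold in clone 4.2 (1.98, SE 0.51, adjusted p 0.0115), folds being on the log2(TPM + 1) scale.

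R1 clone 1.1 of WM115 did not share that level of WNT5A: its libraries had 14.2, 11.4, 14.4, 12.8 and 10.8 TPM, inside the WT range (log2 difference -0.08, SE 0.45, limma adjusted p 0.920). The direct contrast of the 2 R1 clones gave a log2 difference of -3.33 (SE 0.49, adjusted p 6.90e-05) for clone 1.1 against clone 1.2, and -3.07 (adjusted p 0.00102) without library 3 of clone 1.2. Clone 1.3 was spread widely, at 35.5, 116 and 12.4 TPM, and was not called (log2 difference 1.42, adjusted p 0.237). Without its library 3 the WNT5A difference of clone 1.3 was 2.18 with an adjusted p of 0.0129 (limma). Library 4 of the WT, the low one, had more summed melanocytic marker RNA (2890 TPM) than the other 3 WT libraries (1044 to 2001 TPM). Leaving that library out, WNT5A was higher by 2.80 in clone 1.2 (limma adjusted p 0.00155), 1.65 in clone 4.1 (0.0247) and 1.53 in clone 4.2 (0.0403). Without library 3 of clone 1.2 the WNT5A value of that clone was 2.98 (adjusted p 0.00552). Among WM115 libraries with a mitochondrial share above 7.5%, which kept all 4 of WT but 1 of clone 4.1 and 2 of clone 4.2, the WNT5A differences were 2.17 (adjusted p 0.245) and 2.06 (adjusted p 0.0912), and the part of that share was not tested further.

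In A375 the WNT5A level was already above that of WM115 WT in every WT library, at 44.3, 27.6, 40.1 and 44.3 TPM. Clone 1.1 had 49.1, 102 and 49.6 TPM and clone 4.2 had 48.9, 59.7 and 61.7 TPM, so both lay wholly above the WT range. Neither was called (log2 differences 0.70 and 0.54, limma adjusted p 0.378 and 0.658). Clone 1.2 (31.3 to 41.4 TPM) and clone 4.1 (20.3 to 46.6 TPM) overlapped the WT.

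The transcript table divides WNT5A between 2 annotated starts. One annotated transcript (WNT5A-201) begins within 500 bases of the upstream RefSeq start at 55487306 and 3 begin near the downstream one at 55481398. In WM115 WT cells the upstream start carried 41.5% ± 2.37 of WNT5A transcript TPM and the downstream start 52.1% ± 11.5 (SD, n = 4). In clone 1.2 these shares were 51.2% ± 1.32 and 48.6% ± 1.64 (SD, n = 3), in clone 4.1 they were 37.3% ± 7.04 and 50.7% ± 4.18, and in clone 4.2 they were 37.4% ± 9.35 and 54.9% ± 2.32. Both starts therefore had higher levels in the clones with more WNT5A: the upstream start went from 6.19 TPM in WT to 72.3, 22.5 and 20.7 TPM in clones 1.2, 4.1 and 4.2, and the downstream start from 8.51 TPM to 68.5, 31.3 and 31.4 TPM. In libraries 1 and 2 of clone 1.2, without library 3, the upstream start had 62.5 and 53.6 TPM and the downstream start 56.0 and 54.1 TPM. These transcript values are estimates that share reads between transcripts, and they were not tested.

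**Figure D2:**
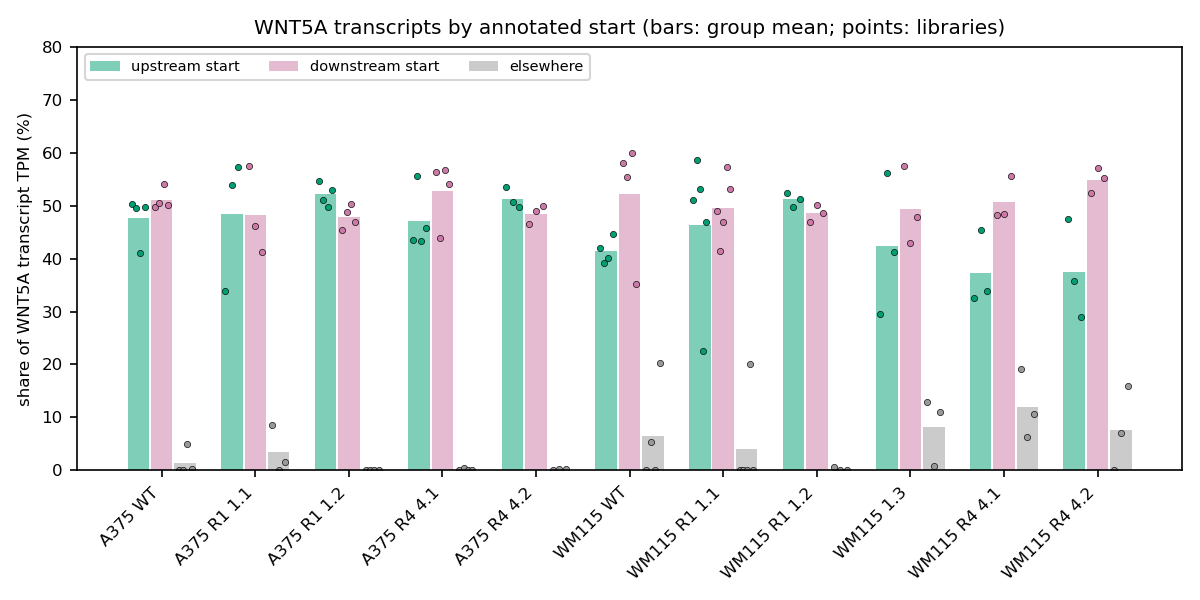
Share of summed WNT5A transcript TPM (vertical axis, percent) assigned to transcripts near the upstream start, near the downstream start and elsewhere, by group; bars are group means and points are libraries. Both starts carry a large share in each of the 11 groups, with mean shares of 37.3% to 52.1% for the upstream and 47.9% to 54.9% for the downstream start.

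WNT5B (ENSG00000111186; GRCh38 chromosome 12, 1529891 to 1647243, plus strand), the close relative of WNT5A, was low throughout but rose in WM115. WT libraries had 1.12, 0.819, 1.12 and 0.712 TPM, so WNT5B passed the filter only with the help of clone libraries. R1 clone 1.1 had 2.85, 3.73, 4.49, 2.68 and 1.90 TPM and R1 clone 1.2 had 12.9, 5.25 and 9.78 TPM. All libraries of the other WM115 clones, from 1.496 to 5.02 TPM, also lay above the highest WT library. The difference was called in clone 1.2 (log2 difference 2.34, SE 0.30, limma adjusted p 0.000113; 2.27 and 0.00124 without library 3), in clone 1.1 (1.06, SE 0.27, adjusted p 0.00852) and in clone 4.2 (1.02, SE 0.30, adjusted p 0.0229). In clone 4.1 (0.85, adjusted p 0.0466) it missed the minimum size, and in clone 1.3 (1.08, adjusted p 0.111) it missed the threshold on p. Clone 1.1 was lower than clone 1.2 by a WNT5B log2 difference of -1.28 (SE 0.29, adjusted p 0.00239; -1.21 and 0.0176 without library 3).

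The smaller WNT5B rises were less steady than the one in clone 1.2. In clone 1.1 the WNT5B call ended without its library 3 (0.95, limma adjusted p 0.0261) and with the mitochondrial share as a term (0.81, adjusted p 0.0652). In clone 4.2 it ended without its library 1 (0.87) or 3 (0.85) and without WT library 2 (0.99) or 4 (0.97). All 4 WM115 WT libraries had a mitochondrial share above 7.5%, whereas 3 of the 5 libraries of clone 1.1, 2 of the 3 of clone 4.1 and 1 of the 3 of clone 4.2 lay below it. Among libraries above that share, the WNT5B difference was 0.76 in clone 1.1 and 0.87 in clone 4.2 (limma adjusted p 0.270 and 0.160). In A375, WNT5B stayed at 0.059 to 0.53 TPM except in WT library 2 (2.40 TPM), and it was not tested there.

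Promoter sequence is shown for the ligand genes whose levels rose in WM115 clones. RefSeq (GRCh38.p14) places the 250 bases before the downstream WNT5A start at chr3:55481399-55481648, minus strand, and those before the WNT5B start that carried 82.9% of its transcript TPM in WM115 WT at chr12:1616806-1617055, plus strand; both are printed 5′ to 3′ with the start following the last base.
WNT5A downstream start: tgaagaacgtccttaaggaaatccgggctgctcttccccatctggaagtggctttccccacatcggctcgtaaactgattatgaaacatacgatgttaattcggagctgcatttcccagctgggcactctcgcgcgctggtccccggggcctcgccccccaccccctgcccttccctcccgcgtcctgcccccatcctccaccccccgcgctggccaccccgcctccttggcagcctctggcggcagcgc
WNT5B: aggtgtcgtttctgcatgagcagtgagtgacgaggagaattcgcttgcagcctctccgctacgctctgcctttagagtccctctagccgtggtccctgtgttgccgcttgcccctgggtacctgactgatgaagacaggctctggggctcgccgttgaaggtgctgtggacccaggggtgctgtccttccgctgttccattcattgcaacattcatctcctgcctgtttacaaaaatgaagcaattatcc
Both windows were searched on both strands for 4 motifs. The TCF/LEF letters were CTTTGAA or any of its variants CTTTGAT or CTTTGTA or also CTTTGTT. The M-box, which MITF is known to bind, was CATGTG. The E-box searched was CACGTG. The letters for AP-1 were TGANTCA. None of these motifs contains another. Neither window held any of them, which is why no base is in capitals. Among 34943 RefSeq promoters of the same length, 12.0% held a TCF/LEF match, 9.45% the M-box, 6.32% the E-box and 6.59% the AP-1 letters. The absence of these letters from a 250-base window says nothing of any factor.

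**Figure D3:**
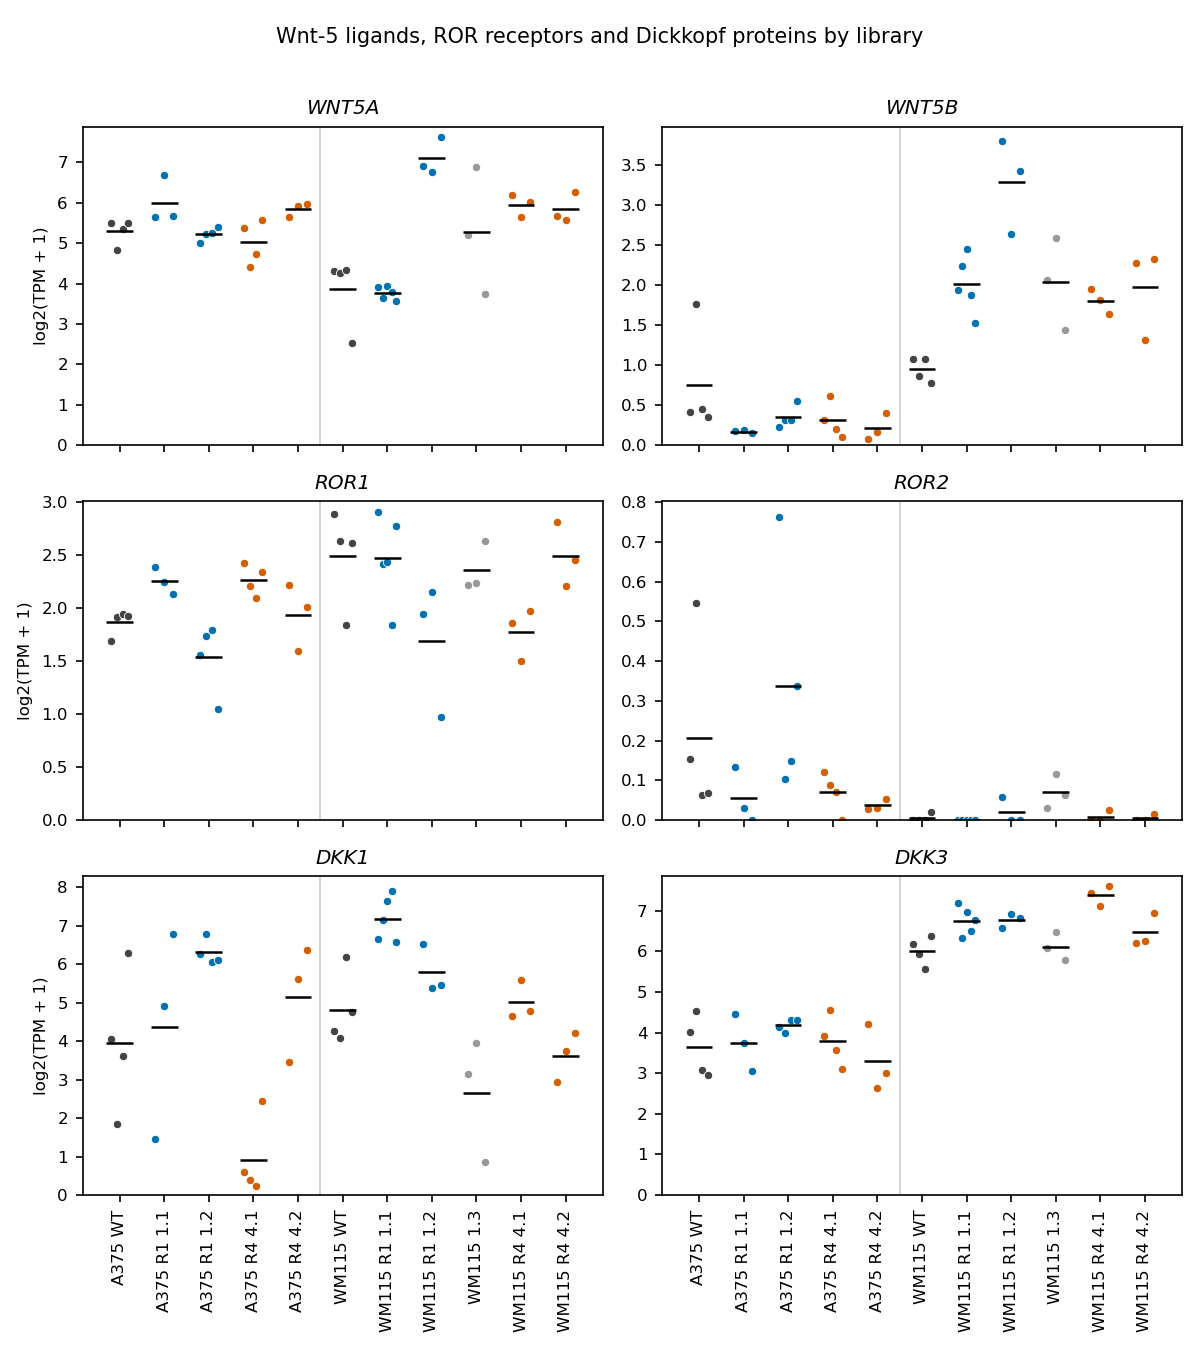
Level of WNT5A, WNT5B, ROR1, ROR2, DKK1 and DKK3 in each library as log2(TPM + 1) (vertical axes, not shared between panels), by line and clone; points are libraries and lines are group means. In WM115 the WNT5A points of clones 1.2, 4.1 and 4.2 and the WNT5B points of every clone lie above the WT points, while the DKK1 points are spread widely inside most groups.

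ROR1 (ENSG00000185483; GRCh38 chromosome 1, 63774022 to 64181498, plus strand), a receptor tyrosine kinase-like protein that binds WNT5A, was low to moderate and was called in no clone. A375 WT libraries had 2.22, 2.77, 2.85 and 2.78 TPM. A375 clone 4.1 (3.27 to 4.35 TPM) and clone 1.1 (3.39 to 4.21 TPM) lay wholly above that range. Their log2 differences were 0.40 and 0.39 (limma adjusted p 0.426 and 0.519). With the replicate number as a block, ROR1 in clone 4.1 had a limma adjusted p of 0.110. WM115 WT libraries had 6.39, 5.21, 2.58 and 5.13 TPM. R1 clone 1.2 had 2.83, 3.44 and 0.962 TPM and R4 clone 4.1 had 2.63, 1.82 and 2.93 TPM, and both overlapped only the lowest WT library. Their ROR1 log2 differences were -0.81 (limma adjusted p 0.0555) and -0.72 (adjusted p 0.0837), and that of clone 1.2 was -0.45 (adjusted p 0.375) without library 3.

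ROR2 (ENSG00000169071; GRCh38 chromosome 9, 91563091 to 91950162, minus strand), the other ROR receptor for WNT5A, was close to absent from these tables. It reached at most 0.698 TPM in A375, in a library of clone 1.2, and 0.084 TPM in WM115, in clone 1.3. All 5 libraries of WM115 clone 1.1 and 3 of the 4 WM115 WT libraries listed it at 0. It was not tested in either line, and of the pair of receptors ROR1 was the higher in every group.

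DKK1 (ENSG00000107984; GRCh38 chromosome 10, 52314296 to 52318042, plus strand), the secreted antagonist of LRP5 and LRP6, was the most variable of the 10 genes between libraries of 1 group. WM115 WT libraries had 18.1, 15.9, 71.4 and 25.8 TPM. R1 clone 1.1 had 100.03, 140.2, 200.1, 238 and 94.3 TPM, all above the highest WT library. That rise was 5.17-fold (log2 difference 2.37, SE 0.53, limma adjusted p 0.00399). R1 clone 1.2, at 91.2, 40.9 and 42.8 TPM, overlapped the WT and was not called (0.98, adjusted p 0.252; 1.14 and 0.344 without library 3). The DKK1 contrast of the 2 R1 clones was 1.40 (SE 0.57, adjusted p 0.0660; 1.23 and 0.216 without library 3). Clone 1.3 had 7.79, 14.5 and 0.81 TPM, all below the WT, with a log2 difference of -2.17 and an adjusted p of 0.108. The 2 WM115 R4 clones overlapped the WT. Among libraries with a mitochondrial share above 7.5%, which kept 2 of the 5 of clone 1.1, the difference was 2.42 with an adjusted p of 0.0956.

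In A375, DKK1 was called between the clones of region R4. Against the WT it was called in no clone in the unpaired fit, and in clone 4.1 with the replicate number as a block. WT libraries had 15.6, 2.60, 11.2 and 77.4 TPM, a wide range that overlapped every clone. R4 clone 4.1 had 0.516, 0.306, 0.174 and 4.42 TPM, whereas R4 clone 4.2 had 10.04, 48.3 and 80.9 TPM, and these 2 clones did not overlap. The contrast of clone 4.1 with clone 4.2 gave a log2 difference of -4.23 (SE 1.07, limma adjusted p 0.0360), the only 1 of the 7 tested genes called between them, where 2.23% of all genes were called. Against WT, DKK1 in clone 4.1 had a log2 difference of -3.04 (SE 0.99, adjusted p 0.196). Libraries of clone 4.1 and WT with the same replicate number deviated together, and with that number as a block the same difference had an SE of 0.37 and a limma adjusted p of 0.00500. R1 clone 1.2 had 76.4, 109, 65.4 and 67.7 TPM and R1 clone 1.1 had 1.74, 28.9 and 108.7 TPM, and neither was called (adjusted p 0.175 and 0.893).

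Among the 8 members with a RefSeq promoter, DKK1 has the window in which the letters of the TCF/LEF motif stand more than once, so it is shown. It is the 250 bases before the RefSeq start (GRCh38.p14, chr10:52314031-52314280, plus strand), 5′ to 3′, with matches to the motif in capitals.
DKK1: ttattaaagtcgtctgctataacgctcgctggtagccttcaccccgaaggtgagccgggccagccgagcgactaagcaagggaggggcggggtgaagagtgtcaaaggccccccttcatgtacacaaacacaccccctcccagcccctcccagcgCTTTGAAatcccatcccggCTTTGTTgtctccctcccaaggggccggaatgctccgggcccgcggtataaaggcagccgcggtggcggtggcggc
The match CTTTGAA begins 95 bases and CTTTGTT 76 bases before the start, both on the strand of the gene. A TCF/LEF match stood in 12.0% of all promoters of this length, and a match is a description of letters, not of binding. In GENCODE 29, exons of the antisense gene PRKG1-AS1 overlap those of DKK1. Because no use of strand is stated, reads from such overlaps cannot be told apart.

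DKK3 (ENSG00000050165; GRCh38 chromosome 11, 11963106 to 12009769, minus strand) was the most abundant of the 10 genes in WM115 WT cells. WT libraries had 71.3, 60.0, 46.2 and 82.6 TPM, and R4 clone 4.1 had 173, 138 and 193 TPM, all above the WT. The rise was 2.59-fold (log2 difference 1.37, SE 0.24, limma adjusted p 0.000535). In R1 clone 1.2 the libraries, at 94.2, 119.7 and 112 TPM, also lay above the WT, and the DKK3 difference of 0.76 (adjusted p 0.0283; 0.73 and 0.116 without library 3) was under the minimum size. R1 clone 1.1, with a lowest library of 79.3 and a highest of 145 TPM, had a difference of 0.74 (adjusted p 0.0164). R4 clone 4.2 (73.2, 75.0 and 122.8 TPM) overlapped the WT, and DKK3 was higher in clone 4.1 than in clone 4.2 by 0.92 (adjusted p 0.0341), also under the minimum size. In that contrast 0 of the 8 tested genes were called, beside 2.63% of all genes. An unadjusted limma p under 0.05 was reached by 3 of the 8, beside 3620 of all 16997 genes. In A375 the DKK3 level ran from 5.24 to 22.5 TPM, with every clone overlapping the WT.

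LEF1 (ENSG00000138795; GRCh38 chromosome 4, 108047545 to 108168956, minus strand), a DNA-binding partner of beta-catenin, fell in 1 A375 clone. WT libraries had 71.9, 72.7, 48.5 and 57.7 TPM, and R1 clone 1.2 had 25.5, 25.8, 27.3 and 26.5 TPM, all below the lowest WT library. The fall was 2.30-fold (log2 difference -1.20, SE 0.20, limma adjusted p 0.00102). The other 3 A375 clones had means of 62.7 to 63.8 TPM beside 62.7 TPM in WT. Clone 1.1 was higher than clone 1.2 by 1.22 on the log2 scale (SE 0.22, adjusted p 0.00160). LEF1 and TCF7 were the 2 of 7 tested genes called between these R1 clones, where 6.16% of all genes were called, 1.47% higher and 4.68% lower in clone 1.1. Within the A375 libraries of low mitochondrial share, 3 of WT and 2 of clone 1.2, the LEF1 difference was -1.35 with an adjusted p of 0.0863.

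WM115 WT libraries had a LEF1 level of 23.03, 20.3, 27.0 and 18.7 TPM. R1 clone 1.2 had 24.7, 12.6 and 0.953 TPM, the last in the library that stood apart. Its log2 difference was -1.39 (limma adjusted p 0.0698), and without that library it was -0.30 (adjusted p 0.588). Likewise, the contrast of R1 clones 1.1 and 1.2 for LEF1 was 1.37 (adjusted p 0.0453) and without that library 0.28 (adjusted p 0.551), so that call rested on 1 library. R4 clone 4.2, at 54.98, 37.4 and 29.8 TPM, lay above the WT range but was not called (0.81, adjusted p 0.297). Counting LEF1, 3 of the 8 tested genes were called between the WM115 R1 clones, where 11.8% of all genes were called, and the others were WNT5A and WNT5B. Without library 3 these other two were called, beside 7.34% of all genes. In GENCODE 29 exons of LEF1-AS1 overlap those of LEF1, and their reads cannot be told apart without strand. The same holds for TCF7 with SKP1, TCF4 with TCF4-AS2 and RPL21P126, TCF7L2 with AL158212.2 and SOX10 with POLR2F.

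TCF7 (ENSG00000081059; GRCh38 chromosome 5, 134114711 to 134151865, plus strand), which encodes TCF-1, another partner of beta-catenin, was lower in A375 R1 clone 1.2 without reaching the threshold. WT libraries had 5.50, 3.94, 3.95 and 3.29 TPM, and clone 1.2 had 1.42, 0.997, 1.303 and 2.53 TPM, all below the WT (log2 difference -1.03, SE 0.31, limma adjusted p 0.0520). Clone 1.1, at 7.22, 5.98 and 3.73 TPM, was higher than clone 1.2 by 1.37 (SE 0.34, adjusted p 0.0138). After median-of-ratios scaling TCF7 in clone 1.2 was called, with a log2 difference of -1.07 (adjusted p 0.0319). R4 clone 4.1 of A375 averaged 2.11 TPM of TCF7, beside 4.17 TPM in WT. With the replicate number as a block its log2 difference was -0.84 (limma adjusted p 0.0657) and was not called. The WT libraries of WM115 had 11.3, 12.5, 15.2 and 8.61 TPM. R4 clone 4.1 had 27.0, 24.2 and 20.4 TPM, all above the WT, with a log2 difference of 0.96 (adjusted p 0.0328) just under the minimum size. With that scaling, which moved the median of all genes in clone 4.1 from -0.10 to 0.01, the TCF7 difference there was 1.09 (adjusted p 0.0143) and was called.

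TCF7L2 was the most abundant effector of this family in A375, at 59.0 to 124 TPM over all A375 libraries, and had 11.3 to 41.6 TPM in WM115. It was called in no clone. Its largest differences were 0.84 in WM115 clone 4.1 (limma adjusted p 0.0165) and 0.78 in clone 4.2 (adjusted p 0.0276), both under the minimum size. TCF4 itself divided the lines, with 5.28 to 15.1 TPM in A375 and 0 to 0.715 TPM in WM115, where it was not tested. Within A375 its clones overlapped the WT libraries (10.01, 8.69, 7.45 and 5.53 TPM). The largest TCF4 difference was 0.51 in clone 4.1 (limma adjusted p 0.274, and 0.142 with the replicate number as a block).

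AXIN2 (ENSG00000168646; GRCh38 chromosome 17, 65528563 to 65561647, minus strand), the target gene of beta-catenin, was low in both lines. WM115 WT libraries had 1.78, 2.66, 1.54 and 1.67 TPM. R1 clone 1.1 had 1.202, 0.586, 0.806, 0.516 and 0.934 TPM and R4 clone 4.2 had 0.63, 0.793 and 1.27 TPM, and both lay wholly below the WT. Their log2 differences were -0.68 (limma adjusted p 0.0268) and -0.62 (adjusted p 0.0768), under the minimum size on the log2(TPM + 1) scale, which understates changes of low genes. With a pseudocount of 0.1 the AXIN2 difference in clone 1.1 was -1.17 (adjusted p 0.0200) and was called. R1 clone 1.2, at 2.52, 1.17 and 3.81 TPM, overlapped the WT, and clone 1.1 differed from it by -0.89 (adjusted p 0.00594; -0.63 and 0.0731 without library 3). In A375, AXIN2 was at 0.031 to 0.094 TPM in the 4 libraries of R1 clone 1.2, below every WT library (0.725, 0.227, 0.294 and 0.431 TPM), and it was too low to be tested there.

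**Figure D4:**
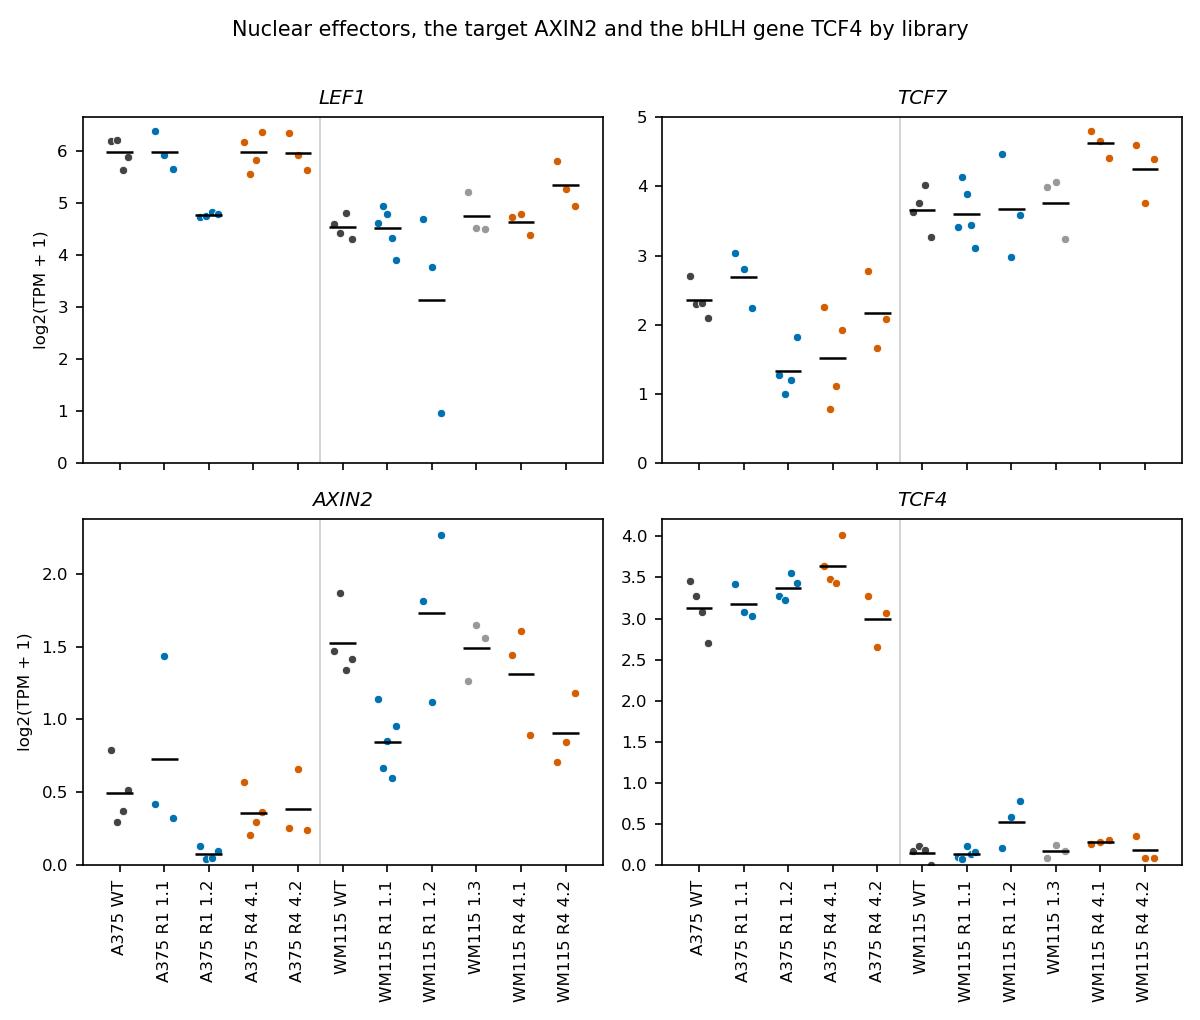
Level of LEF1, TCF7, AXIN2 and TCF4 in each library as log2(TPM + 1) (vertical axes, not shared between panels), by line and clone; points are libraries and lines are group means. The 4 libraries of A375 clone 1.2 lie below the WT points for LEF1, TCF7 and AXIN2, the lowest LEF1 point of WM115 is library 3 of clone 1.2, and TCF4 is near 0 throughout WM115.

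Whether the deletions themselves moved these genes was asked with the clone as the unit, with 2 clones per region and line but only 1 WT mean per line, so the error of a comparison with WT is set by the spread between clones and assumes that the WT would vary alike. With limma on clone means, 0 of the tested genes were called for R1 against WT, R4 against WT or R1 against R4 in either line, or for R1 against R4 over both lines, and 0% of all genes were called in each of these comparisons. For R1 against R4, an unadjusted limma p under 0.05 was reached by 0 of the 7 genes in A375, 2 of the 8 in WM115 and 2 of the 9 over both lines. Over all genes, it was reached by 201 of 16692, 970 of 16997 and 767 of 18662 in the same order. DKK1 was higher in R1 than in R4 clones by 2.17 in WM115 (SE 0.66, unadjusted limma p 0.0223) and by 2.24 over both lines (SE 0.88, p 0.0341), with adjusted p-values of 0.805 and 0.981. LEF1 was lower in R1 than in R4 clones over both lines by a log2 difference of -0.88 (SE 0.37, unadjusted p 0.0441, adjusted p 0.981). WM115 clone 1.2, among the R1 clones here, had 0.953 TPM of LEF1 in library 3 beside 24.7 and 12.6 TPM in the others. The effect of a region did not differ between the lines at an adjusted threshold for any gene, and each line has only 1 WT mean there. For WNT5B, named after its value was seen, the R1 effect was higher in WM115 by 2.19 (SE 0.69). Clone means without library 3 of WM115 clone 1.2 also gave 0 calls among the members. The sizes of the DKK1, LEF1 and WNT5B differences without that library are not given. With 2 clones per region, the spread between clones of 1 deletion sets these errors, and for WNT5A in WM115 it gave an SE of 1.32.

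The pigment-cell factors SOX10 and MITF were read in the same libraries. SOX10, the gene whose enhancer regions are deleted, was called lower in WM115 clone 1.2 (log2 difference -2.44, limma adjusted p 0.0192), where without library 3 the difference was -0.87 (adjusted p 0.0119) and under the minimum size, and it was called in no other clone against WT. MITF was called lower in WM115 clone 1.2 (log2 difference -2.01, limma adjusted p 0.0253; -0.97 and 0.238 without library 3), clone 4.1 (-3.40, adjusted p 0.000793) and clone 4.2 (-2.80, adjusted p 0.00412), and in A375 clone 1.1 (-1.31, adjusted p 0.00165). The WM115 clones in which WNT5A was called thus also had lower MITF values. Lower mean MITF was not particular to them. It was 71.0 TPM in R1 clone 1.1 and 110 TPM in clone 1.3, against 128 TPM in WM115 WT. In A375 the clone means ran from 8.41 to 16.6 TPM against 22.3 TPM in WT, and WNT5A was called in none of those clones. Summed melanocytic markers in WM115 were 643 and 936 TPM in libraries 1 and 2 of clone 1.2. They were 791 to 1138 TPM in clone 4.1 and 661 to 1065 TPM in clone 4.2, beside 1044 to 2890 TPM in WT. In bulk RNA, fewer cells of a type and less RNA per cell cannot be told apart. After subtracting each line's mean, Pearson's r between WNT5A and MITF was -0.674 over the 39 libraries, and it was -0.572 in A375 and -0.685 in WM115 (-0.619 without library 3 of clone 1.2). LEF1 and SOX10 had an r of 0.829, with 0.699 in A375 and 0.882 in WM115, but the WM115 value fell to 0.284 without library 3 of clone 1.2. These libraries share clones, so r is a description only. The level of DKK1 ran against SOX10 in A375 (r -0.868) and was weak in WM115 (r -0.143, and -0.375 without library 3 of clone 1.2).

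**Figure D5:**
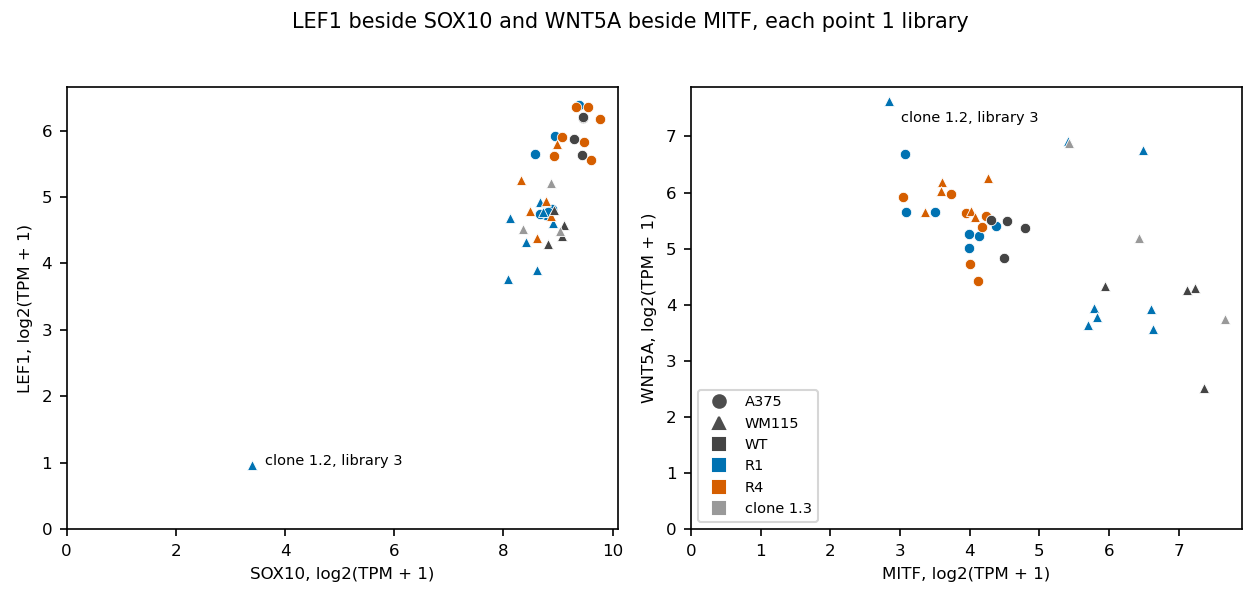
LEF1 against SOX10 (left) and WNT5A against MITF (right), both axes log2(TPM + 1), each point 1 library; shape gives the line and colour the genotype. Library 3 of WM115 clone 1.2 lies alone at low SOX10 and low LEF1 and has the highest WNT5A, and the 4 WM115 libraries with most MITF have 4.74 to 18.7 TPM of WNT5A.

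Among all genes with at least 1 TPM in at least 3 libraries, those whose levels followed a member most closely were named by line-centred Pearson's r over the 39 libraries, which come from 11 groups. For WNT5A they were WNT5A-AS1 (r 0.921) and TNFRSF11B (0.910), the gene of osteoprotegerin. WNT5A-AS1 is by its name an antisense gene of WNT5A. Unlike for DKK1 and LEF1, no antisense gene was found whose annotated exons overlap those of WNT5A. The use of strand is not stated, and why the 2 levels ran together was not tested. For TNFRSF11B the r was 0.956 in WM115 and 0.260 in A375. DKK1 was followed by AK5 (0.896), an adenylate kinase, and CNN3 (0.836), a calponin, with r for AK5 of 0.897 in each line. LEF1 was followed by PPP1R14C (0.906) and SOX5 (0.892), a SOX-family transcription factor. In WM115 these values were 0.928 and 0.955, and without library 3 of clone 1.2 they were 0.726 and 0.791. The closest for ROR1 were TMEM181 (0.837) and GAS1 (0.802), for DKK3 SEZ6L2 (0.792) and LRRC73 (0.786), and for WNT5B MT1E (0.781) and RPL41 (0.771). TCF7 (DFFA 0.735, FGFRL1 0.715), AXIN2 (MYPOP 0.736, C11orf94 0.726) and TCF4 (SNX13 0.701, SHF 0.692) had weaker companions, and for SNX13 the WM115 value of 0.595 was 0.154 without that library. Between members, WNT5A and WNT5B had an r of 0.693 in WM115 (0.625 without that library) and -0.423 in A375.

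Another 99 genes of the Wnt pathway (other ligands, secretion factors, Frizzled and other receptors, antagonists, R-spondins, the destruction complex, nuclear cofactors, targets and the planar polarity and calcium branch) gave the setting for the members, with 66 of them tested in A375 and 76 in WM115. In A375, clone 1.1 had 0 higher and 1 lower, clone 1.2 had 1 higher and 5 lower, clone 4.1 had 1 higher and 0 lower, and clone 4.2 had 0 of either. Over all genes, 0.186% were called higher and 0.545% lower in clone 1.1, and 2.57% and 1.44% in clone 1.2. The shares were 0.246% and 0.407% in clone 4.1 and 0.108% and 0.365% in clone 4.2. In WM115, clone 1.1 had 3 higher and 4 lower, clone 1.2 had 6 and 7, clone 4.1 had 7 and 3, clone 4.2 had 4 and 3, and clone 1.3 had 1 and 0. In the first 4 of these clones, 1.22%, 4.49%, 3.20% and 2.52% of all genes were called higher and 3.66%, 3.11%, 4.37% and 4.08% lower. For clone 1.3 the shares were 0.424% higher and 0.194% lower. Without library 3 the 13 calls of clone 1.2 were 5, of which 3 were higher and 2 lower, beside 3.12% of all genes called. In A375 clone 1.2, where LEF1 fell, BAMBI, a TGF-beta pseudoreceptor that is also a beta-catenin target, fell by 1.73 and TNFRSF19, another such target, fell by 1.77 on the log2 scale (limma adjusted p 0.000207 and 0.00580). NFATC2, a transcription factor of calcium signalling, fell by 2.53 there and by 1.69 in clone 1.1 (adjusted p 1.17e-06 and 0.00105).

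In WM115 R1 clone 1.1, where DKK1 rose, the Frizzled receptor gene FZD4 rose from 23.5 ± 6.72 (SD, n = 4) to 85.8 ± 17.4 TPM (SD, n = 5), with a limma adjusted p of 0.00506. RNF43, a ubiquitin ligase that removes Frizzled receptors, fell from 5.17 to 0.484 TPM (adjusted p 3.08e-06), and the secreted antagonist SFRP2 fell from 3.77 to 0.015 TPM (adjusted p 1.39e-05). SFRP2 was also called lower in R1 clone 1.2 (log2 difference -1.32, limma adjusted p 0.00518, and -1.25 with 0.0362 without library 3). Of the 8 listed beta-catenin target genes, 2 were called higher in clone 1.1, MYC (log2 difference 1.22) and LBH (1.49), and 0 lower. Over all genes, 1.22% were called higher and 3.66% lower there. CTNNB1, the gene of beta-catenin, had a log2 difference of -1.03 in clone 1.1 (limma adjusted p 0.000628) and -1.23 in R4 clone 4.1 (adjusted p 0.000435). MYC, LBH and CTNNB1 were named after their values were seen. SFRP2 moved the other way in R4 clone 4.1, where it rose to 46.8 ± 11.3 TPM (SD, n = 3; adjusted p 2.42e-07). In the same clone, with more WNT5A, WNT9A rose from 0.111 to 3.95 TPM and WNT7B from 0.0185 to 3.23 TPM (adjusted p 1.10e-06 and 0.000438). WT libraries had at most 0.168 TPM of WNT9A and 0.034 TPM of WNT7B. Both genes thus passed the filter only through clone libraries where they are high, so their p-values are not separate support for a rise. WNT7B was also called higher in R1 clone 1.2 (log2 difference 1.39, limma adjusted p 0.00634, and 1.45 with 0.0276 without library 3). R4 clone 4.2 had higher CTNNBIP1, an inhibitor of the beta-catenin and TCF interaction (59.5 to 267 TPM, adjusted p 0.00123), lower MYC (15.4 to 3.94 TPM, adjusted p 0.00180) and lower VANGL2, a core planar polarity gene (5.33 to 0.148 TPM, adjusted p 6.53e-06). CTNNBIP1 and MYC were called in R4 clone 4.1 as well (log2 differences 1.75 and -1.83, limma adjusted p 0.00613 and 0.000915). VANGL2 was also called lower in R1 clone 1.1 (-1.11, adjusted p 0.00159) and R1 clone 1.2 (-1.07, adjusted p 0.00671, and -1.01 with 0.0447 without library 3). R1 clone 1.2 had 2.87, 2.73 and 12.5 TPM of PRICKLE1, another planar polarity gene, against a WT mean of 0.320 TPM (log2 difference 2.14, adjusted p 0.00254; 1.53 and 0.0255 without library 3). PRICKLE1 too passed the filter only through clone libraries, as WT libraries had at most 0.429 TPM. NFATC2 and TNFRSF19 were called lower in R1 clone 1.2 (-2.60 and -2.36, adjusted p 0.0377 and 0.0299), but library 3, at 2.29 and 0.438 TPM, carried both calls. Without it their differences were -0.69 and -0.73 (adjusted p 0.175 and 0.121). The secreted antagonist SFRP1 was the 1 gene called in clone 1.3 (adjusted p 0.0417). The count there was 0 without WT library 1, 2 or 4 or without library 1 or 2 of clone 1.3, and 2 without WT library 3 or library 3 of clone 1.3. SFRP1 was also called higher in R4 clone 4.2 (log2 difference 1.63, limma adjusted p 0.00125) and R1 clone 1.2 (1.56, adjusted p 0.00200, and 1.66 with 0.00834 without library 3). Between the WT lines, 17 of the 76 tested genes were higher and 6 lower in WM115, beside 11.5% and 8.54% of all genes. LBH (log2 difference 2.87), CELSR2 (2.76) and FZD4 (2.70) were the furthest apart.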

How the data were processed

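Poly-A RNA of A375 and WM115 cells was sequenced, and the authors deposited TPM values per gene and per transcript in 2 tables of the whole series. DRAGEN and genome build GRCh38 are named, per the submitters' processing notes; the annotation release, the use of strand and the number of reads are not given in the sources used here, so depth and counting precision are unknown. Columns that matched no sample's labels, 6 in each of them, were not used, and repeated lines were taken once.

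Log2(TPM + 1) values were fitted per line with limma 3.58.1 in R 4.3.3 (empirical Bayes with a mean trend, 1 coefficient per group), for genes of at least 1 TPM in at least 3 libraries. Tests were two-sided, with Benjamini-Hochberg adjustment over all genes tested, and a call needed an adjusted p under 0.05 and a log2 difference of at least 1 in size. Regions were compared on clone means. Alternatives changed the pseudocount, filter, scaling, groups fitted, replicate block, mitochondrial share and libraries. Clone means, pathway values and correlations without library 3 of WM115 R1 clone 1.2 were added after seeing the data. Libraries of A375 clone 4.1 and WT with the same number deviated together (r 0.326 to 0.776 over 4 pairs); no other clone met the rule that every pair exceed 0.1.

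The 10 members and all lists were chosen with earlier results of these data known. Named were the 10 genes, TCF7L2, SOX10, MITF, up to 3 called genes of the pathway list per comparison by size, and the 2 genes most alike to each member. Gene positions are from GENCODE 29, and promoters from RefSeq, where 8 of the 10 members matched (not AXIN2 and DKK3). Summed markers of other cell types ran from 4.81 to 21.8 TPM in A375 and 374 to 866 TPM in WM115 (7 fibroblast genes), 56.0 to 114 and 38.9 to 79.4 TPM (6 keratinocyte genes), 0.423 to 2.88 and 2.24 to 16.3 TPM (4 endothelial genes), and 1.29 to 12.3 and 0.041 to 0.946 TPM (5 blood genes).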

Additional observations from a re-analysis of the deposited data

Results flagged for a closer look

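Over 35 sets of 4 or 5 libraries (1 member in 1 group each), 3 single libraries lay far from the rest of their group by Dixon's criterion, which chance meets in about 1 in 20 groups. Library 4 of WM115 WT had 4.74 TPM of WNT5A, and the other 3 had 18.1 to 19.2 TPM. Library 1 of A375 WT had 2.22 TPM of ROR1, and the others had 2.77 to 2.85 TPM. Library 4 of A375 R4 clone 4.1 had 4.42 TPM of DKK1, and the others had 0.174 to 0.516 TPM.

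Clones labelled with the same deletion differed in 6 direct limma contrasts of a member. In A375, R1 clone 1.1 was higher than clone 1.2 in LEF1 (log2 difference 1.22, adjusted p 0.00160) and TCF7 (1.37, adjusted p 0.0138), and R4 clone 4.1 was lower than clone 4.2 in DKK1 (-4.23, adjusted p 0.0360). In WM115, R1 clone 1.1 was lower than clone 1.2 in WNT5A (-3.33, adjusted p 6.90e-05) and WNT5B (-1.28, adjusted p 0.00239) and higher in LEF1 (1.37, adjusted p 0.0453). The LEF1 difference in WM115 was 0.28 (limma adjusted p 0.551) without library 3 of clone 1.2.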

How the results depend on the processing

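Of 345 alternatives to the 21 called member differences, 324 kept direction and call, 21 ended the call and 0 reversed it. The number of members called is given here where it moved by over 1.5 times. A pseudocount of 0.1 gave 4 in WM115 clone 4.1 against WT and 5 between the WM115 R1 clones. A mean TPM of at least 5 gave 1 in each of WM115 clones 1.1, 1.2 and 4.2, and no filter on low values gave 1 in clone 4.2. Median-of-ratios scaling and fitting only the groups compared each gave 2 in A375 clone 1.2. With the replicate block the count was 1 in A375 clone 4.1, where numbers paired the libraries, and 1 in each of WM115 clones 1.2 and 4.2, where libraries shared only a number. Without a minimum difference it was 4 in WM115 clone 1.1 and 4 in clone 4.1. With the mitochondrial share as a term it was 1 in WM115 clones 1.1 and 4.2. Only libraries of low mitochondrial share gave 0 in A375 clone 1.2, and only those of high share gave 0 in WM115 clone 1.1, 1 in clone 4.1 and 0 in clone 4.2. Leaving out each replicate gave 1 to 2 in A375 clone 1.2, 1 to 2 in WM115 clone 1.1, 2 to 4 in clone 1.2, 2 to 3 in clone 4.1, 1 to 2 in clone 4.2, 0 to 2 in clone 1.3 and 5 to 6 between the WT lines. Except without library 3 of WM115 clone 1.2, no share of all genes called under the same alternative is given beside these counts. A moved count therefore cannot be set against what all genes did. The causes were not tested. Each clone group is 1 clone and depth is unknown, so clone and deletion cannot be told apart within a group, and values below about 1 TPM carry little precision.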
